A study of Mus musculus with 12 samples.

Results

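Myosin heavy chains are the motor proteins of the thick filament and of the contractile fibres of non-muscle cells. The genes described here, Myh6, Myh7, Myh7b, Myh9, Myh10, Myh11 and Myh14, were chosen by name and matched by symbol to Ensembl gene identifiers. All 7 were found, of 38293 genes counted in each of 2 deposited tables. They were examined in mouse hearts by RNA sequencing (RNA-seq) in 4 groups of 3 libraries, each library made from 1 animal.

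The first table holds C57Bl/6J wild-type (WT) hearts after sham surgery (WT sham) and 14 days after ischaemia–reperfusion (IR), in which the left anterior descending artery was closed and reopened (WT IR). The second holds C57Bl/6J hearts 14 days after IR from Zeb2 cTg mice (Zeb2 cTg IR) and from their wild-type littermates (Zeb2 WT IR), so that every animal of this table was injured and a sham group is not analysed here. Zeb2 cTg mice carry Zeb2 and eGFP behind a stop cassette in the Rosa26 locus, and Cre driven by the αMHC (Myh6) promoter removes that cassette in cardiomyocytes. The transgene is thus switched on through the promoter of a gene that is itself described here. The methods describe the mice as young adults, and the sources differ on their sex. The sources differ on the tissue, which is the left ventricle in the sample records, the remote zone in the methods and the infarct with its border zone in the design text.

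Myh6 encodes α-myosin heavy chain, the fast motor of the adult mouse ventricle, and Myh7 encodes β-myosin heavy chain, the slower motor of the fetal ventricle that returns in injured and overloaded hearts. Myh7b is an ancient sarcomeric relative whose intron carries a microRNA. Myh9, Myh10 and Myh14 encode the heavy chains of non-muscle myosins IIA, IIB and IIC, and Myh11 encodes the heavy chain of smooth muscle. The 2 comparisons asked how the injury moved these genes in WT hearts, and how they differed after injury between the hearts labelled with and without the transgene.

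The sarcomeric genes host the family of microRNAs sometimes called myomiRs, and the study examined one of them, miR-208a, as a regulator of Zeb2. Their mature sequences are shown because Myh6, Myh7 and Myh7b each carry one on their own strand, and the seed (bases 2 to 8) is in capitals. All sequences are from RefSeq (GRCm38.p6).
miR-208a-3p, within Myh6, chr14:54949072-54949093, minus strand: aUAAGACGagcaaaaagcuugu
miR-208b-3p, within Myh7, chr14:54975710-54975731, minus strand: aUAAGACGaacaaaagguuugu
miR-499-5p, within Myh7b, chr2:155622893-155622913, plus strand: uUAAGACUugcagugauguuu
miR-208a-3p and miR-208b-3p had the same seed and differed at 3 positions outside it (G10A, A16G and C18U, counted from the 5′ end, with the base of miR-208a first). The seed of miR-499-5p was not identical to theirs.

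Myh6 and Myh7 lie next to each other on chromosome 14, on the minus strand, at 54941921–54966927 and 54970684–54994626 (GENCODE M21 on GRCm38, the assembly also called mm10). Myh7b lies on chromosome 2 at 155611212–155634307 (plus strand), Myh9 on chromosome 15 at 77760587–77842175 (minus strand) and Myh10 on chromosome 11 at 68691559–68816632 (plus strand). Myh11 lies on chromosome 16 at 14194535–14291372 and Myh14 on chromosome 7 at 44605803–44670843, both on the minus strand.

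The promoter windows of Myh6 and Myh7 are shown because these neighbours were the most abundant and the most strongly changed members in WT hearts, and because ZEB2, a repressor that binds E-boxes, is the factor under study. Each window runs from 250 bases before to 50 bases after the start listed in RefSeq, in the direction of the gene. Capitals mark, on either strand, CACCTG (the E-box bound by ZEB2), CATTCC (the M-CAT site bound by TEAD factors) and, for core promoters, TATAAA.
Myh6, chr14:54966558-54966857, minus strand: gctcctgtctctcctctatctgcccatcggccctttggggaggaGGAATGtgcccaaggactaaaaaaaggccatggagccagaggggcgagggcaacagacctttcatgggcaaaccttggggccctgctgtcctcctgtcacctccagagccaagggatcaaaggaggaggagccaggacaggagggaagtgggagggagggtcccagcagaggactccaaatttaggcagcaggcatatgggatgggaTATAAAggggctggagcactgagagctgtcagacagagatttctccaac
Myh7, chr14:54994577-54994876, minus strand: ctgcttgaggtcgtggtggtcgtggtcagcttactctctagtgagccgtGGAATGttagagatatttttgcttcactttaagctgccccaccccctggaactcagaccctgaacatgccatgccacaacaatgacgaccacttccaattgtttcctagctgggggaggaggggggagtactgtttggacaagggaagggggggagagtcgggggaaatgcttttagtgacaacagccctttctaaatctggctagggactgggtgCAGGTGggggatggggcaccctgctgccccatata
Both windows held 1 CATTCC, with its first base 206 bases before the listed start of Myh6 and 201 bases before that of Myh7. CACCTG occurred once in the Myh7 window, 15 bases after the start, and did not occur in the Myh6 window, whose TATAAA began 1 base after the start. The listed start of Myh6 lies 320 bases inside the gene as GENCODE draws it, whereas that of Myh7 is the same in both. RefSeq lists a second start of Myh7, 77 bases further into the gene, and its window held the same CACCTG. Among 32851 promoter windows of 300 bases, 20.2% held CACCTG, 14.7% CATTCC and 13.6% TATAAA. Among the other members, CACCTG occurred in the windows of Myh7b and Myh10, and none of the 3 motifs in that of Myh14. Of the 7 members 6 had a window.

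The counts on genes summed to between 20215781 and 36816818 in a library, of which 60.6% to 73.5% fell on the mitochondrial genome and between 5706340 and 11618213 outside it. Levels are given as counts per 1000000 counts (CPM) after TMM scaling within a table, where 1 CPM stood for between 17.2 and 37.8 counts. The tables were scaled separately, so levels are compared only within a table. Adjusted p-values are from edgeR's quasi-likelihood test with the Benjamini-Hochberg method applied to every gene tested, with 3 libraries a group and a threshold of 0.05. Zeb2 itself, as a check of the labels, measured 54.7, 57.8 and 67.0 CPM in Zeb2 WT IR and 55.5, 56.9 and 58.7 CPM in Zeb2 cTg IR (log2 fold change -0.07, SE 0.12, adjusted p = 0.750). Whether transcripts of the transgene are counted on the Zeb2 gene was not tested. Because Zeb2 counts were not higher there, these 3 are named as the libraries labelled as Zeb2 cTg IR, and directions drawn from them carry that limit. Markers of cardiomyocytes were high in all libraries, with a summed level of 14 genes from 11255 to 16112 CPM.

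Myh6 was by far the most abundant member in every library. Per kilobase of the longest protein-coding transcript, the scale used here to compare genes, Myh6 measured 1359 ± 116 CPM per kb in WT sham (mean ± SD, n = 3). Myh9 followed at 9.57 ± 1.43, Myh14 at 4.40 ± 0.41 and Myh7b at 3.55 ± 0.61 CPM per kb. Myh7 measured 2.17 ± 0.75, Myh10 2.05 ± 0.29 and Myh11 1.28 ± 0.06 CPM per kb. Among the neighbours in this order, Myh14 and Myh7b, Myh7b and Myh7, and Myh7 and Myh10 overlapped between libraries, whereas Myh6, Myh9 and Myh11 stood clear of theirs.

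In WT IR the order differed, with Myh7 second at 35.3 ± 12.4 CPM per kb behind Myh6 at 961 ± 194. Myh9 came next at 10.6 ± 0.93 CPM per kb, below all 3 Myh7 values. Myh10 (2.92 ± 0.56), Myh14 (2.76 ± 0.79) and Myh7b (2.55 ± 0.66 CPM per kb) overlapped, and Myh11 was again last at 1.26 ± 0.33 CPM per kb. In Zeb2 WT IR, Myh6 measured 864 ± 191 and Myh7 28.3 ± 19.6 CPM per kb, and replicate 2 held only 5.68 CPM per kb of Myh7, within the range of Myh9 (5.29 to 9.05). In the libraries labelled as Zeb2 cTg IR, Myh6 measured 1213 ± 354, Myh7 10.4 ± 3.20 and Myh9 8.50 ± 1.94 CPM per kb, the latter pair overlapping. The remaining 4 genes lay between 1.24 and 3.22 CPM per kb as group means in both groups of that table.

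**Figure D1:**
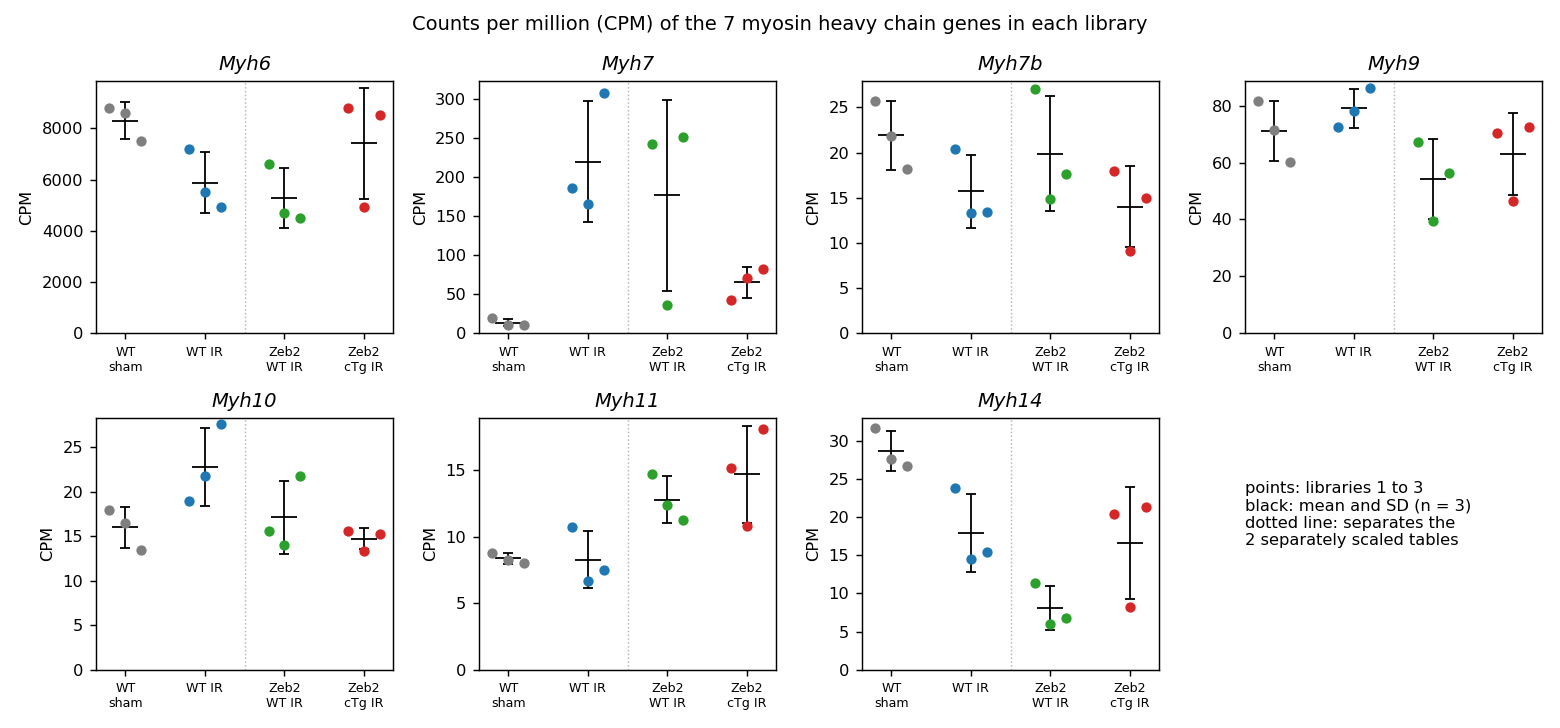
Level of each member in CPM (linear axis from 0) in the 3 libraries of each group, with the mean and SD in black and a dotted line between the separately scaled tables. Myh7 sits between 10.7 and 18.9 CPM in WT sham and between 166 and 308 CPM in WT IR, and a single Zeb2 WT IR library at 35.4 CPM lies far below the other two of its group.

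After IR in WT hearts, Myh7 rose, Myh10 rose by a much smaller amount and Myh14 fell. Myh7 was 16.2-fold higher and Myh10 1.41-fold higher, while Myh14 was 1.60-fold lower. The other 4 genes did not pass the test, among them Myh6. Of all 13756 genes tested in this comparison, 11.0% were called higher and 9.74% lower, against 2 and 1 of the 7 members. The groups did not overlap for 4 of the 7 members (Myh6, Myh7, Myh10 and Myh14), against 39.8% of all genes tested. The median log2 fold change was -0.02 over the members and 0.01 over all genes.

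Myh7, the fetal β-isoform, measured 18.9, 10.9 and 10.7 CPM in WT sham replicates 1 to 3, from 500, 355 and 184 counts. It measured 186, 166 and 308 CPM in WT IR, from 5960, 6259 and 8271 counts. Every WT IR library lay above every WT sham library, and replicate 3 was the highest of the injured hearts. The log2 fold change was 4.02 (SE 0.29, 95% interval 3.36 to 4.68, adjusted p = 0.000462), and it was past the threshold under all 18 other settings and left-out libraries, between 3.69 and 4.37.

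Myh6, the adult α-isoform, measured 8815, 8604 and 7497 CPM in WT sham and 7204, 5516 and 4911 CPM in WT IR. All injured hearts were below all sham hearts, although WT IR replicate 1 and WT sham replicate 3 were close. The log2 fold change of -0.50 (SE 0.19, interval -0.92 to -0.08) did not pass (adjusted p = 0.0860). It passed with DESeq2 (adjusted p = 0.00423), with limma-voom (0.0497), without a filter on low counts (0.0166) and without WT IR replicate 1 (0.00249), at log2 fold changes from -0.67 to -0.50. Scaled to the cardiomyocyte markers, it was -0.21 (adjusted p = 0.0613).

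Myh7b, the third sarcomeric member, measured 25.7, 21.8 and 18.2 CPM in WT sham and 20.4, 13.3 and 13.5 CPM in WT IR, with groups that overlapped through WT IR replicate 1. Its log2 fold change was -0.49 (SE 0.18, adjusted p = 0.0792). It passed with DESeq2 (adjusted p = 0.0450), without a filter (0.00449) and without WT IR replicate 1 (-0.72 on the log2 scale, 0.000724). It was -0.19 when scaled to the cardiomyocyte markers (adjusted p = 0.3095) and -0.31 when corrected for GC content (adjusted p = 0.186), and passed in neither.

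Among the non-muscle chains, Myh10 (non-muscle myosin IIB) measured 17.9, 16.5 and 13.5 CPM in WT sham and 19.0, 21.7 and 27.6 CPM in WT IR. The groups did not overlap, although WT sham replicate 1 and WT IR replicate 1 were close. The log2 fold change was 0.50 (SE 0.15, adjusted p = 0.0384), and the call was kept in only 1 of the 6 fits that left out a library, with values from 0.34 (without WT IR replicate 3) to 0.61. Without WT sham replicate 1, 2 or 3 the adjusted p was 0.0615, 0.127 and 0.131, and without WT IR replicate 2 or 3 it was 0.0950 and 0.0854. With all 12 libraries in 1 fit it was 0.0791.

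Myh14 (non-muscle myosin IIC) measured 31.7, 27.6 and 26.7 CPM in WT sham and 23.8, 14.5 and 15.4 CPM in WT IR, without overlap. The log2 fold change was -0.68 (SE 0.17, adjusted p = 0.0233). It fell short of the threshold after correction for GC content (-0.44, adjusted p = 0.0674), when all 12 libraries were fitted together (-0.68, adjusted p = 0.1745), and without WT sham replicate 1, 2 or 3 (0.0877, 0.0867 and 0.0565) or WT IR replicate 2 (0.0949). Myh14 had the highest GC content of the members, 60.8%, against a median of 49.4% over all genes tested.

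Myh9 (non-muscle myosin IIA) measured between 60.4 and 81.6 CPM in WT sham and between 72.7 and 86.4 CPM in WT IR, and the groups overlapped (log2 fold change 0.15, SE 0.12, adjusted p = 0.374). Scaled to cardiomyocyte markers in place of all genes, which moves the median of all genes from 0.01 to 0.32, Myh9 measured 0.48 (adjusted p = 0.0420). Myh11, the smooth muscle chain, measured between 8.03 and 8.78 CPM in WT sham and between 6.64 and 10.7 CPM in WT IR (-0.02, SE 0.17, adjusted p = 0.953). Its 95% interval ran from -0.39 to 0.35, and its sign turned with the scaling to cardiomyocyte markers (0.27) and without WT sham replicate 1 or WT IR replicate 2 or 3.

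**Figure D2:**
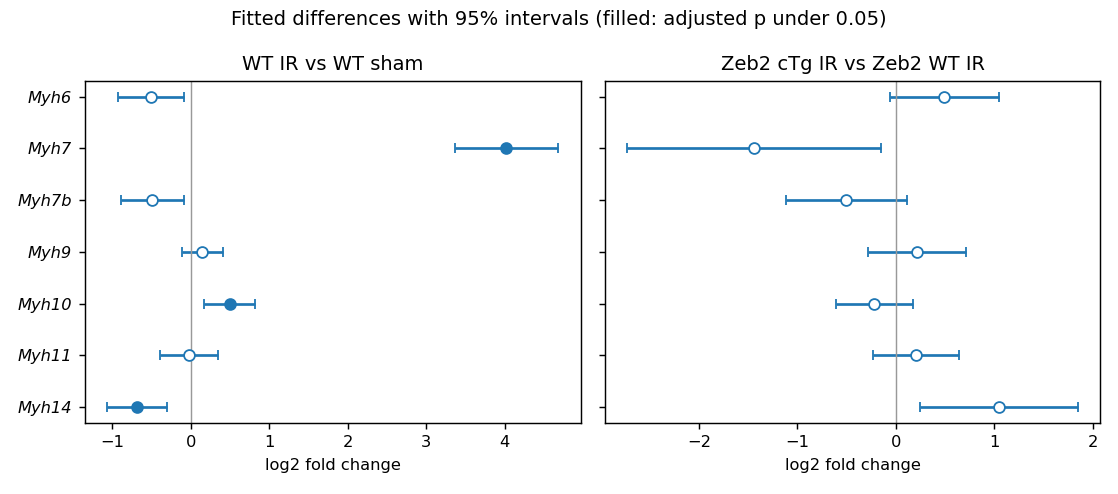
Log2 fold change (x axis) of each member with its 95% interval in both comparisons, filled where the adjusted p was under 0.05. Myh7, Myh10 and Myh14 are filled in WT IR against WT sham, and no member is filled in Zeb2 cTg IR against Zeb2 WT IR.

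These samples were pieces of tissue, so that fewer cells of a type and less RNA per cell cannot be told apart. The markers of other cells moved in the same comparison. Of 8 fibroblast markers 7 rose in WT IR, and their summed level was 894, 495 and 573 CPM in WT sham and 1814, 2935 and 4536 CPM in WT IR. All 6 macrophage markers rose (summed level 128 to 142 CPM in WT sham and 191 to 361 CPM in WT IR), and 5 of 14 cardiomyocyte markers fell (15254 to 16112 CPM and 11255 to 14407 CPM). The smooth muscle and pericyte markers were split, with 2 of 8 higher and 2 lower and sums of 471 to 481 CPM and 470 to 547 CPM. None of the 6 endothelial markers passed (373 to 397 CPM and 323 to 396 CPM). The part of these markers in the results for Myh7, Myh10 and Myh14 was not tested. Scaling to the cardiomyocyte markers moved the median log2 fold change of all genes from 0.01 to 0.32. It shifts every gene, so it does not test that part. With this scaling the log2 fold change of Myh7 was 4.37. That of Myh10 was 0.84 (adjusted p = 0.0160), that of Myh14 -0.39 (adjusted p = 0.0492) and that of Myh6 -0.21, which did not pass.

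**Figure D3:**
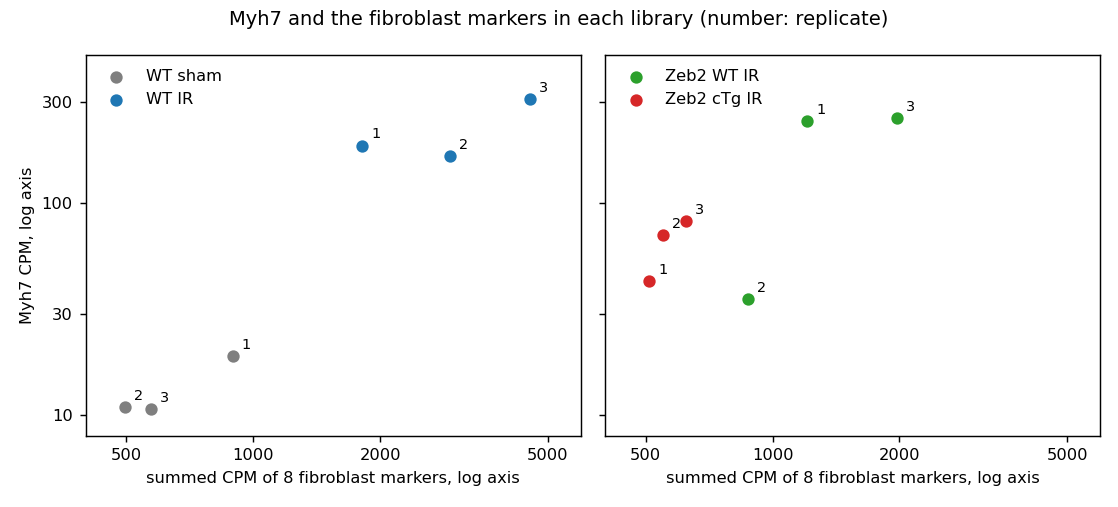
Myh7 level against the summed level of 8 fibroblast markers (both in CPM on log axes) in each library, with 1 table per panel and replicate numbers beside the points. Sham hearts are low in both, from 495 CPM of markers, and WT IR replicate 3 is highest in both, at 308 CPM of Myh7 and 4536 CPM of markers.

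The share of Myh7 in the counts of Myh6 plus Myh7 is free of scaling between libraries. It was 0.214%, 0.126% and 0.143% in WT sham and 2.52%, 2.91% and 5.91% in WT IR. The exact (Clopper-Pearson) 95% intervals, which cover counting error only, were narrow, from 0.114% to 0.140% for the lowest and from 5.79% to 6.03% for the highest library. Means were 0.161% ± 0.047 and 3.78% ± 1.85 (SD, n = 3), and every injured heart was above every sham heart. The difference of 3.62 percentage points had p = 0.1 in a two-sided exact permutation test, which is the smallest p that 3 against 3 can give. Myh6 remained the larger part of the pair in every heart, with 131683 counts against 8271 of Myh7 in WT IR replicate 3, where the share of Myh7 was highest.

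Reads that both genes could have produced bear on this share. Of the 75-base windows of the longest Myh7 transcript, 15.3% occurred without mismatch in Myh6, and 15.5% of those of Myh6 in Myh7, 939 windows in each. HTSeq by default leaves out reads that align to more than 1 place. Myh9 and Myh10 shared 48 windows, 0.652% and 0.622% of each, and Myh7b, Myh11 and Myh14 shared none with any transcript of another gene. Per kilobase of exon, the difference of the share was 2.85 percentage points.

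**Figure D4:**
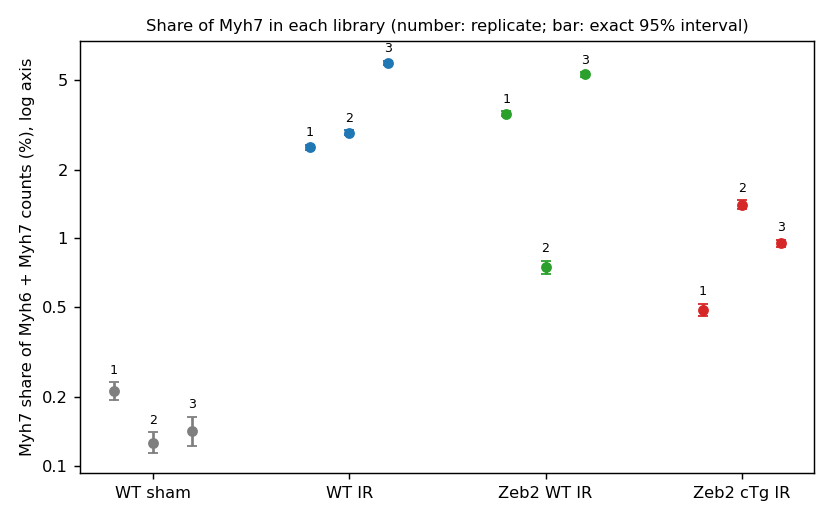
Share of Myh7 in the counts of Myh6 plus Myh7 (percent, log axis) in each library, with replicate numbers and exact 95% intervals. WT sham libraries lie between 0.126% and 0.214% and WT IR libraries between 2.52% and 5.91%, while Zeb2 WT IR replicate 2, at 0.747%, lies inside the range of the libraries labelled as Zeb2 cTg IR.

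In the second table, no member passed the test of the libraries labelled as Zeb2 cTg IR against Zeb2 WT IR, and the groups overlapped for all 7. Of 13018 genes tested, edgeR called 2.14% higher and 1.51% lower, and the groups did not overlap for 26.2%. At an unadjusted p under 0.05 there were 2 members, Myh7 and Myh14, among 3134 genes. DESeq2 called 1 member, Myh14, among 1096 of the 13018 genes, and limma-voom called no member among 394. The median log2 fold change was 0.20 over the members and 0.01 over all genes.

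Myh7 measured 243, 35.4 and 251 CPM in Zeb2 WT IR, from 6629, 874 and 7538 counts, and 43.0, 70.3 and 81.8 CPM in the libraries labelled as Zeb2 cTg IR, from 1026, 1842 and 2913 counts. Both high libraries were Zeb2 WT IR replicates 1 and 3, whereas replicate 2 was the lowest of all 6. The log2 fold change was -1.44 (SE 0.57, interval -2.73 to -0.15, adjusted p = 0.169). Without Zeb2 WT IR replicate 2 it was -1.93 (SE 0.23, adjusted p = 0.00782), and without any other single library it lay between -1.64 and -1.10 with adjusted p from 0.134 to 0.411. Without a filter on low counts it passed as well (-1.43, adjusted p = 0.00437). Zeb2 WT IR replicate 2 had the highest mitochondrial share of all 12 libraries (73.5%), and Zeb2 cTg IR replicate 3 had the lowest (60.6%). The former also had the lowest summed level of fibroblast markers in its group, 874 CPM against 1209 and 1970 CPM. Its summed level of cardiomyocyte markers, 13410 CPM, was close to the 13320 and 12703 CPM of replicates 1 and 3. Whether these values bear on its Myh7 level was not tested.

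The share of Myh7 was 3.54%, 0.747% and 5.27% in Zeb2 WT IR and 0.486%, 1.41% and 0.952% in the libraries labelled as Zeb2 cTg IR. The means were 3.18% ± 2.28 and 0.949% ± 0.462 (SD, n = 3) and the groups overlapped. The difference of -2.24 percentage points had p = 0.3 in the two-sided exact permutation test. Without Zeb2 WT IR replicate 2 it was -3.46 percentage points and the groups did not overlap, with p = 0.2 by the exact test, the smallest that 2 against 3 can give. Without Zeb2 WT IR replicate 3 it was -1.19 percentage points, with an exact p = 0.6. On the log2 ratio of Myh7 to Myh6 the difference was -1.51, also with an exact p = 0.3.

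Myh6 measured 6626, 4702 and 4516 CPM in Zeb2 WT IR and 8808, 4920 and 8514 CPM in the libraries labelled as Zeb2 cTg IR. Replicate 2 of the latter lay within the range of the former, and the other two lay above it. The log2 fold change was 0.49 (SE 0.25, adjusted p = 0.255), and 0.71 (adjusted p = 0.0351) without Zeb2 cTg IR replicate 2. It was 0.17 when scaled to the cardiomyocyte markers (adjusted p = 0.596) and 0.14 when corrected for GC content (adjusted p = 0.603), and passed in neither.

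Myh14 measured 11.3, 5.99 and 6.80 CPM in Zeb2 WT IR and 20.4, 8.17 and 21.3 CPM in the libraries labelled as Zeb2 cTg IR, where replicate 2 was again the low one. Its log2 fold change of 1.05 (SE 0.36, interval 0.25 to 1.85) had an adjusted p of 0.121. It passed with DESeq2 (1.04, adjusted p = 0.0209), without a filter (1.06, 0.00352), with all 12 libraries in 1 fit (1.06, 0.0425) and without Zeb2 cTg IR replicate 2 (1.37, 0.00719). It was 0.71 when scaled to cardiomyocyte markers and 0.49 when corrected for GC content, and passed in neither. Over all genes of this table the log2 fold change had a Spearman correlation of 0.55 with GC content, against -0.29 in WT hearts. Genes are not independent replicates, and no p is given for these correlations.

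Myh7b measured 27.0, 14.9 and 17.7 CPM in Zeb2 WT IR and 18.0, 9.12 and 14.9 CPM in the libraries labelled as Zeb2 cTg IR (log2 fold change -0.50, SE 0.27, adjusted p = 0.288). Corrected for GC content, its value was -0.96 (adjusted p = 0.00576). Myh9 measured between 39.3 and 67.3 CPM and between 46.6 and 72.5 CPM, with a log2 fold change of 0.22 (SE 0.22, adjusted p = 0.570) that turned negative with scaling to cardiomyocyte markers (-0.09) and with the correction for GC content (-0.13).

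Myh10 measured between 14.0 and 21.7 CPM in Zeb2 WT IR and between 13.4 and 15.6 CPM in the libraries labelled as Zeb2 cTg IR (-0.22, SE 0.17, adjusted p = 0.460). Myh11 measured between 11.3 and 14.7 CPM and between 10.8 and 18.1 CPM (0.20, SE 0.19, adjusted p = 0.545), and turned to -0.11 with scaling to cardiomyocyte markers. The intervals, from -0.61 to 0.17 for Myh10 and from -0.24 to 0.64 for Myh11, do not show that either gene was alike in both groups.

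Marker lists differed in this table too. Of 8 fibroblast markers 3 fell in the libraries labelled as Zeb2 cTg IR (Col1a2, Col3a1 and Lum), with summed levels of 874 to 1970 CPM in Zeb2 WT IR and 509 to 624 CPM. Of 14 cardiomyocyte markers 1 rose, Tnnt2 (12703 to 13410 CPM and 13061 to 15869 CPM for the list). Of the smooth muscle and pericyte markers Acta2 rose (468 to 509 CPM and 406 to 475 CPM for the list), and no macrophage or endothelial marker passed. Of 4 atrial cardiomyocyte markers only 1, Myl4, was tested, and it did not pass. The summed level of these 4 was low, 0.403 to 0.486 CPM in Zeb2 WT IR and 0.916 to 3.29 CPM in the other group. The part of all these markers in the values of Myh7, Myh6 and Myh14 was not tested.

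**Figure D5:**
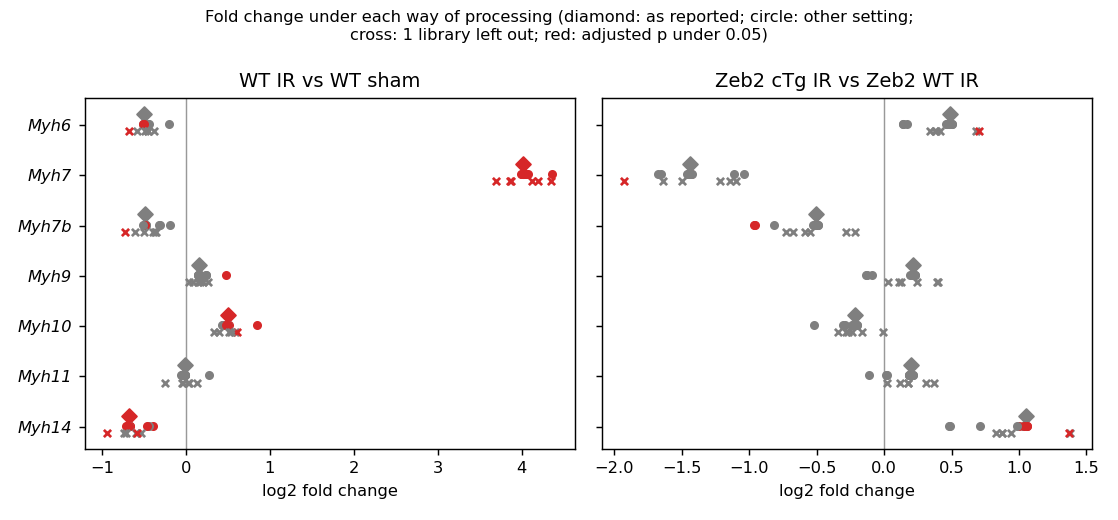
Log2 fold change (x axis) of each member as reported (diamond), under 12 other settings (circles) and with 1 library left out (crosses), in red where the adjusted p was under 0.05. Myh7 stays red and between 3.69 and 4.37 in WT IR against WT sham, whereas in Zeb2 cTg IR against Zeb2 WT IR it is red only without a filter and without Zeb2 WT IR replicate 2.

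The long non-coding RNA Mhrt, which is transcribed from the opposite strand of the Myh7 locus, measured 13.6, 14.1 and 10.5 CPM in WT sham and 12.2, 7.91 and 7.31 CPM in WT IR (log2 fold change -0.49, SE 0.19). It did not pass, nor in the second table (0.44, SE 0.20), where it measured 16.4, 18.5 and 11.6 CPM in Zeb2 WT IR and 21.0, 16.8 and 25.0 CPM in the libraries labelled as Zeb2 cTg IR. The library kit marked strand, but the strand setting of the counting is not given in the sources used here, so reads of Mhrt and of its neighbours may not be separated. Reads counted on the hairpin gene Mir208a, which cannot be told apart from the unspliced Myh6 transcript around it, numbered 5 to 21 in the first table's sham hearts and 7 to 20 in its injured hearts, and 23 to 48 in the second table (log2 fold changes 0.00, SE 0.39, and -0.20, SE 0.28). Mir208b had at most 2 counts and Mir499 at most 4 in any library, too few to test.

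The 7 skeletal and other sarcomeric heavy chain genes (Myh1, Myh2, Myh3, Myh4, Myh8, Myh13 and Myh15) were too low to be tested in either table. WT IR replicate 3 was the exception in level, with 32 counts of Myh1, 33 of Myh8 and 7 each of Myh3 and Myh4, where every other library had at most 4 counts of any of the 7 genes. No skeletal muscle marker passed the filter in either table, but the filter needs counts in several libraries and so cannot speak to a single one. The summed level of these markers was 0.932 CPM in WT IR replicate 3. It was 0.344 and 0.450 CPM in the other WT IR libraries and 0.399 to 0.530 CPM in WT sham. In the second table Zeb2 cTg IR replicate 3 reached 0.927 CPM. Whether skeletal tissue was present was not tested. Without WT IR replicate 3 the log2 fold change of Myh7 after IR was 3.69 and the difference of the share was 2.56 percentage points.

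Of the light chains that bind these heavy chains, 4 of 7 sarcomeric genes were tested. Myl3, the ventricular essential light chain, fell after IR in WT hearts (-0.56, SE 0.14, adjusted p = 0.0237) and none passed in the second table. The most abundant of them, Myl2, the ventricular regulatory light chain, measured 2488 ± 62.8 CPM in Zeb2 WT IR and 1914 ± 166 CPM in the libraries labelled as Zeb2 cTg IR (SD, n = 3, log2 fold change -0.38, SE 0.13, adjusted p = 0.124). In that table Myl4, the atrial essential light chain, measured 0.403 to 0.466 CPM in Zeb2 WT IR and 1.55, 0.649 and 1.88 CPM in the libraries labelled as Zeb2 cTg IR, and Myl7, the atrial regulatory light chain, had 39 counts in replicate 3 of the latter and at most 1 count in the other 5 libraries. Of 5 smooth muscle and non-muscle light chains 4 were tested. Myl6 (0.43, SE 0.09, adjusted p = 0.0129) and Myl12b (0.58, SE 0.14, adjusted p = 0.0220) rose after IR, and Myl9 (2.37, SE 0.25, adjusted p = 0.00204) and Myl12a (0.54, SE 0.11, adjusted p = 0.0347) were higher in the libraries labelled as Zeb2 cTg IR.

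Of 13 kinases and phosphatase subunits that act on the light chains, 12 were tested in each table. Dapk3, which can phosphorylate the regulatory light chain, fell after IR (-0.63, SE 0.16, adjusted p = 0.0255), and Mylk3, the cardiac light chain kinase, was higher in the libraries labelled as Zeb2 cTg IR (0.85, SE 0.13, adjusted p = 0.0117). Mylk3 measured 221 ± 27.0 CPM in Zeb2 WT IR and 397 ± 9.60 CPM in the other group (SD, n = 3). Among the partners of the thick filament, 2 of 9 tested fell after IR, among them Obsl1, which encodes a protein of the M-band (-0.81, SE 0.14, adjusted p = 0.00733). Of 10 tested in the second comparison, 2 were higher, Mybpc3, which encodes cardiac myosin-binding protein C (0.85, SE 0.16, adjusted p = 0.0244), and Mybphl, which had between 0 and 29 counts and whose fitted size is therefore not given.

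Of 7 chaperones and factors of myosin assembly, all of them tested, Unc45b (-0.53, SE 0.14, adjusted p = 0.0282) and Smyd1 (-0.30, SE 0.09, adjusted p = 0.0433), both needed to fold sarcomeric myosin, fell after IR. Ankrd1 (1.36, SE 0.19, adjusted p = 0.00407) and S100a4, which binds non-muscle myosin IIA (1.22, SE 0.32, adjusted p = 0.0270), rose. Ankrd1 was on this list but encodes a stress-responsive repeat protein of the titin filament, not a myosin chaperone. In the second comparison no chaperone passed. Of the 7 genes 1 did, Ankrd1, which was higher in the libraries labelled as Zeb2 cTg IR (1.27, SE 0.29, adjusted p = 0.0482).

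Of 17 genes known to regulate Myh6 or Myh7 transcription, 2 rose and 7 fell after IR. The cardiac homeobox factor Nkx2-5 measured 14.1, 14.1 and 14.6 CPM in WT sham and 7.97, 4.76 and 4.55 CPM in WT IR (-1.30, SE 0.19, adjusted p = 0.00407). Gata4 (-0.46, SE 0.09, adjusted p = 0.00904) and Srf (-0.60, SE 0.13, adjusted p = 0.0129) also fell, as did Tead1 (-0.32, adjusted p = 0.0218), whose protein binds the M-CAT site shown above, and the thyroid hormone receptor gene Thra (-0.31, adjusted p = 0.0274), while Eya4, a transcriptional cofactor, rose from 0.368 ± 0.180 to 1.31 ± 0.355 CPM (adjusted p = 0.0111). In the libraries labelled as Zeb2 cTg IR, Nkx2-5 was higher, at 5.57, 2.10 and 5.56 CPM against 1.58, 0.728 and 1.13 CPM (1.94, SE 0.40, adjusted p = 0.0346). Tead1 was lower there too (-0.71, SE 0.12, adjusted p = 0.0166), Thra did not pass there, and Thrb, the other thyroid hormone receptor gene, passed in neither comparison. For the light chains, partners and regulators named here, values with the GC correction or with a library left out were not examined. Fold changes in the second table had a Spearman correlation of 0.55 with GC content, so these calls carry that limit.

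The genes whose levels followed each member most closely over the 12 libraries were found by Pearson's r of log2 CPM, centred within each table, among 11950 genes tested in both. These are descriptions over libraries that share their groups, depth and base composition. For Myh7 they were Tgfb3, a growth factor of the TGF-β family (0.97), the protease gene Ctsk (0.97) and Cyth3 (0.96). For Myh6 they were Sptb, Kptn and Eef1a2 (0.98 to 0.99), and for Myh14 Smpd1, Plekhm2 and Aldh2 (0.99 each). For Myh7b they were Mrps18a, Tacc2 and Pacsin2 (0.92 to 0.96), and for Myh9 Pld2, Uba7 and Ltbp4 (0.96 to 0.97). For Myh10 they were Sp140, Ece2 and Adam12 (0.95 each), and for Myh11 Rnaseh2a, Stard13 and Pim3 (0.90 to 0.93). Among the members, the closest pair was Myh6 and Myh14 (0.97), followed by Myh7 and Myh10 (0.81), while Myh6 and Myh7 had r = -0.52.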

How the data were processed

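RNA was sequenced from 12 mouse hearts, 3 in each of 4 groups, as stranded single-end reads of 75 bases. Per the submitters' processing notes, STAR 2.4.2a, HTSeq 0.6.1 and the build mm10 were used, and the methods name the GENCODE M4 annotation. The authors deposited whole-number counts per gene, without normalization, in 2 tables of 38293 identifiers and 6 libraries each. All sample columns were used. The sample records name an mRNA kit and the methods a total RNA kit.

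Groups and replicate numbers were taken from the labels. Each comparison was fitted within its table in R 4.3.3 with edgeR 4.0.16, using TMM factors, filterByExpr (minimum count 10, minimum total 15), the quasi-likelihood test and the Benjamini-Hochberg method over every gene tested. Symbols, positions and GC content were taken from GENCODE M21 (36429 identifiers matched), and sequences from RefSeq. Shares were tested over libraries with scipy 1.17.1 by exact permutation. The script for the fit was tested on simulated data. No 2 libraries of the same table held counts that agreed within sampling noise. Pairs across the tables were not compared. DESeq2 1.42.0, limma-voom (limma 3.58.1), other scaling, filters, a correction for GC content, a replicate block and leaving out each library were alternatives. The study used DESeq, which was not used here.

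The 7 members and the lists of partners, regulators and cell markers were chosen with earlier results of these data known. Named are all members, Zeb2, up to 4 genes with the smallest p in each list and comparison, transcripts hosted by or opposite to a member, and the 3 genes most like each member. Myl4, Myl7, Thra, Thrb and the skeletal heavy chain genes were named after their values were seen. Some results that meet this rule are not reported here.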

Additional observations from a re-analysis of the deposited data

How the results depend on the processing

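Of 252 values of single members under an alternative, 210 kept their direction and their side of the threshold, 14 lost a call, 20 gained one and 8 changed sign without passing. Changes of sign were those of Myh11 after IR with scaling to cardiomyocyte markers (0.27) and without WT sham replicate 1 or WT IR replicate 2 or 3 (0.019, 0.13 and 0.039, of a range of -0.25 to 0.13 over the 6 fits with 1 library left out), and, in the second table, of Myh9 with that scaling (-0.091), with the GC correction (-0.13) and with both block and GC correction (-0.13), and of Myh11 with that scaling (-0.11). After IR in WT hearts, 5 members passed without a filter (3568 of 22687 genes tested) and 5 with DESeq2 (2488 of 13756). With all 12 libraries in 1 fit, 1 member passed (1424 of 14151 genes). With 1 library left out, the number of members was 1 to 5 (421 to 4980 genes). In the second table, 2 members passed without a filter (1553 genes), 2 with the replicate block (1813 genes, Myh7b and Myh14), 1 with the GC correction (836), 1 with the block and the GC correction (739), 1 with all 12 libraries in 1 fit (1932) and 1 with DESeq2 (1096), and with 1 library left out the number was 0 to 2 (98 to 2419 genes). The cause was not tested, except that fewer libraries were fitted where one was left out.

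The numbers belong to different animals. Deviations of same-numbered hearts correlated between -0.03 and 0.01 in the first table and between -0.04 and 0.26 in the second. Zeb2 WT IR replicate 2 correlated 0.26 with Zeb2 cTg IR replicate 2, and between -0.25 and -0.12 with the other libraries of that group. Whether same-numbered hearts shared a batch was not tested, and the block is given only as an alternative. In both tables at least 1 library correlated more with another number than with its own. In WT hearts the block called Myh7b (-0.50, adjusted p = 0.0143) and not Myh10 (0.49, adjusted p = 0.0669). With the paired test the shares had exact p = 0.25, the smallest that 3 pairs can give, in WT hearts and 0.5 in the second table. With scaling to cardiomyocyte markers the median over all genes was 0.32 and -0.28, and the part of called genes that were higher went from 53.1% to 94.0% and from 58.7% to 24.5%. The GC correction brought it to 42.7% and all 12 libraries in 1 fit to 66.7% after IR in WT hearts. The share of Myh7 kept its direction under all alternatives, with differences of 2.56 to 4.25 and -3.46 to -1.19 percentage points when 1 library was left out. The share per transcript length was added after seeing the data (3.56 and -2.20 percentage points). With 3 libraries a group, the spread between hearts limits every test.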
